A study of Homo sapiens with 12 samples.

Results

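The class II and class IV histone deacetylases (HDACs) are 7 genes, HDAC4, HDAC5, HDAC7 and HDAC9 (class IIa), HDAC6 and HDAC10 (class IIb) and HDAC11 (class IV). They were chosen by their symbols from the 58278 genes listed for every library, and all 7 passed the filter on low counts that left 24342 genes for testing. RNA was measured in HK2 cells, a human proximal tubular epithelial line immortalised in culture, with 2 biological replicates in each of 6 groups. Untreated cells formed Ctrl (CONTROL in the library titles), and a 3 h exposure to 5 ng/mL TNF-α gave TN (TNF in the titles). Cells given the short-chain fatty acids (SCFAs) propionate at 15 mM or butyrate at 3 mM for 24 h before TNF-α formed PRTN and BUTN, and cells given the same SCFAs after TNF-α formed TNPR and TNBU. No group with an SCFA but without TNF-α was analysed here. No group given TNF-α alone was harvested as late after TNF-α as TNPR and TNBU. In TNPR and TNBU against TN, the SCFA and this later harvest therefore cannot be told apart. Doses and times were taken from the study's methods, since the treatment text shared by the library labels names thapsigargin and JQ1 and the titles name TNF-α and the SCFAs. HK2 is a single cell line, so the 2 replicates of a group measure the spread between cultures of that line.

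Histone deacetylases remove acetyl groups from lysines of histones and other proteins. Class IIa members shuttle between nucleus and cytoplasm: kinases phosphorylate them, 14-3-3 proteins hold the phosphorylated forms in the cytoplasm, and in the nucleus they repress MEF2 transcription factors, largely through the HDAC3-NCoR/SMRT complex because their own catalytic activity is weak. HDAC6 deacetylates α-tubulin and other cytoplasmic proteins, HDAC10 deacetylates polyamines, and HDAC11 removes long fatty-acyl groups from lysines. Propionate and butyrate are known inhibitors of histone deacetylases, mainly of class I (HDAC1, HDAC2, HDAC3 and HDAC8), and the values here are RNA levels of the enzymes, not their activity.

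The promoters of 4 members are shown to set HDAC7, which was lower with SCFAs, beside HDAC4 and HDAC11, which were higher, and HDAC9, which was highest in TN. They are the 250 bases before each start site in RefSeq (GRCh38.p14), 5′ to 3′ on the strand of the gene. RefSeq entries matched 6 of the 7 symbols, and HDAC5 was not matched. Where the table lists several start sites (5 for HDAC4, 5 for HDAC9 and 3 for HDAC6), only the window nearest to the start of the MANE Select transcript was searched, so the motif counts cover 1 start site a gene. The table lists 1 start site for HDAC7, whose gene in GENCODE v44 reaches farther upstream, to chr12:47833132. Any start there was not searched. The HDAC7 window is chr12:47819904-47820153 (minus strand), that of HDAC11 is chr3:13480056-13480305 (plus strand), that of HDAC9 is chr7:18495499-18495748 (plus strand) and that of HDAC4 is chr2:239401650-239401899 (minus strand), which ends 629 bases from the start of the HDAC4 MANE Select transcript. Capitals mark the GC box GGGCGG and the CCAAT box CCAAT, searched on both strands.
HDAC7: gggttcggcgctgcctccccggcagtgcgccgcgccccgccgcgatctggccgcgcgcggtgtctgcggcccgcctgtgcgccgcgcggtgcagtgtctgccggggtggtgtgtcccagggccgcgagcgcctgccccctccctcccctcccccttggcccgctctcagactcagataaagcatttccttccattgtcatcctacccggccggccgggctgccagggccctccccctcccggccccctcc
HDAC11: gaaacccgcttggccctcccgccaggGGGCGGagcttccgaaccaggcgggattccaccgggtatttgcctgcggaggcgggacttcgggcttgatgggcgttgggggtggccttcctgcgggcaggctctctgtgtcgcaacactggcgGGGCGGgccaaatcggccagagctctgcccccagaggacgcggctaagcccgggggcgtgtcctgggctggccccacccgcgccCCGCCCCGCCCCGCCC
HDAC9: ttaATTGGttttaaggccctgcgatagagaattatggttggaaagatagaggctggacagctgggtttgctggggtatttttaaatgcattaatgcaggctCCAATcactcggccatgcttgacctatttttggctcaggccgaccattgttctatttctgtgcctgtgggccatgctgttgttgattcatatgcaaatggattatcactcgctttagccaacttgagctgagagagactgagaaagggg
HDAC4: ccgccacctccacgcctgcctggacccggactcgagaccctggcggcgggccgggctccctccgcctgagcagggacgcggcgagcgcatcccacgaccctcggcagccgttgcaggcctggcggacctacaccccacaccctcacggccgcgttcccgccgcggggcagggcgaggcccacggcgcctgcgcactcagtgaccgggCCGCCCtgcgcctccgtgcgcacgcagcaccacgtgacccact
The HDAC7 window held 0 GC boxes and 0 CCAAT boxes at a GC content of 75.6%, and the HDAC11 window held 5 GC boxes at 73.6%, of which 3 lie end to end and share a base at each join. The HDAC9 window was the least GC-rich of the 6 at 45.2%, with 2 CCAAT boxes and 0 GC boxes, and the HDAC4 window had 1 GC box at 76.8%. HDAC6 had 2 GC boxes and 2 CCAAT boxes, and HDAC10 had 4 GC boxes and 1 CCAAT box. Among 34788 distinct RefSeq promoter windows of the same kind, 42.6% held a GC box and 32.0% a CCAAT box, and the median GC content was 58.0%. The motif TATAAA (10.8% of all windows) and the MEF2 motif (2.82%) were found in 0 of the 6, and the E-box CACGTG (6.31%) was found in HDAC4 alone of the 6. A match describes the letters of a window and does not show that a factor binds there.

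Libraries held between 27269986 and 33851130 expected counts, and the members' expected counts in a library ran from 274 for HDAC11 to 4421 for HDAC7. Levels are given as CPM, the counts of a library scaled to a common total with TMM factors, and a gene is called where the fold change exceeded 1.5 and the Benjamini-Hochberg adjusted p of limma-voom over all tested genes was under 0.05. The 8 TNF-α response genes used to check the labels were all called up in TN against Ctrl, among them TNFAIP3 by 2.15 on the log2 scale. Of 10 proximal tubule markers, 5 reached 1 CPM in Ctrl and in TN, with SLC34A1, LRP2 and ANPEP at or near 0, so the line carries only part of that profile. The summed level of 6 endothelial and fibroblast markers, mostly LUM, was 9.90 to 12.1 CPM in the Ctrl and TN libraries and 38.7 to 69.7 CPM in the SCFA libraries. Against TN, 5 of the 6 were called up in all 4 SCFA groups, beside 18.4% of all tested genes. VWF, COL1A2, PECAM1 and CDH5 led with mean log2 changes of 5.67, 3.93, 3.27 and 3.11. In TN, 2 of the 6 reached 1 CPM and 2 were at 0 in both libraries. With SCFAs, 2 (PRTN), 3 (BUTN), 4 (TNPR) and 4 (TNBU) of the 6 reached 1 CPM, so some of these large changes are between low levels. The part of these markers in the HDAC results was not tested. The 6 leukocyte markers summed to 30.4 to 36.3 CPM in the Ctrl and TN libraries and 27.4 to 52.3 CPM in the SCFA libraries, nearly all of it CD68. Of these 6, PTPRC, CD3E and MS4A1 were at or near 0 throughout, while CD14 rose against TN in all 4 SCFA groups (1.62 to 2.03 on the log2 scale, from 0.633 and 0.897 CPM in TN) and LYZ rose in PRTN and BUTN (means of 1.02 and 0.843 CPM against 0.0745 CPM in TN), and their part in the HDAC results was not tested. In bulk RNA, a different share of cells with a transcript and a different amount per cell cannot be told apart. Replicates lay farther apart in TNPR and TNBU (chi-square per gene 16.8 and 20.1) than in the other groups (3.35 to 7.16).

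HDAC7, a class IIa repressor of MEF2 factors known for its role in vascular and thymic development, showed the largest difference of the 7. The gene lies at chr12:47782722-47833132 on the minus strand. Its Ctrl libraries had 152 and 143 CPM and its TN libraries 130 and 137 CPM. With SCFAs before TNF-α it was 35.1 and 35.6 CPM in PRTN and 46.4 and 44.4 CPM in BUTN. With SCFAs after TNF-α it was 37.7 and 31.6 CPM in TNPR and 37.7 and 38.3 CPM in TNBU. All 8 SCFA libraries lay below all 4 libraries without an SCFA. Against TN, HDAC7 fell by 1.92 on the log2 scale in PRTN (SE 0.08, adjusted p = 1.82e-09 by limma-voom), which is 3.77-fold lower, and by 1.56 in BUTN, 1.95 in TNPR and 1.81 in TNBU. Between TN and Ctrl the difference was -0.14 (95% confidence interval -0.29 to 0.01, adjusted p = 0.349), and HDAC7 was not called. Against Ctrl it fell by between 1.70 (BUTN) and 2.09 (TNPR) on the log2 scale. RSEM gave HDAC7 non-whole counts in 11 of 12 libraries, as it does where a read fits more than 1 feature. SLC48A1, which overlaps it by a few bases on the opposite strand and rose by 3.10 in PRTN against TN, also had non-whole counts in 11 libraries, and the sum of both was whole (within 0.011) in 0 of 12, so the fractions of these genes did not cancel.

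HDAC5, a class IIa member known to restrain hypertrophic growth in the heart, moved the other way. The gene lies at chr17:44076746-44123702 on the minus strand. Ctrl libraries had 17.5 and 16.2 CPM and TN libraries 12.8 and 15.3 CPM. PRTN libraries had 36.6 and 37.6 CPM and BUTN libraries 39.2 and 37.4 CPM, while TNPR had 39.1 and 42.1 CPM and TNBU 37.9 and 43.5 CPM. The SCFA libraries did not overlap the other 4. HDAC5 rose by 1.40 in PRTN (SE 0.10, adjusted p = 1.94e-07), 1.45 in BUTN, 1.53 in TNPR and 1.53 in TNBU on the log2 scale against TN, a change of 2.64-fold to 2.89-fold. It also rose against Ctrl, by 1.14 to 1.27. TN differed from Ctrl by -0.26 (95% confidence interval -0.51 to -0.01, adjusted p = 0.263), which was not called. G6PC3 overlaps HDAC5 on the opposite strand, and both had whole counts in all 12 libraries.

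HDAC4, the class IIa member best known from bone and muscle, was low and rose less. Its gene spans chr2:239048168-239401654 on the minus strand. Ctrl had 13.2 and 13.8 CPM and TN had 11.02 and 11.95 CPM, against 21.9 and 20.95 CPM in PRTN and 18.7 and 16.7 CPM in BUTN. TNPR replicates stood at 22.6 and 17.8 CPM and TNBU replicates at 22.2 and 16.1 CPM, so that the replicates of these groups were farther apart than those of PRTN while still above both TN libraries. Against TN, HDAC4 rose by 0.90 in PRTN (SE 0.16, adjusted p = 0.000331), 0.62 in BUTN (adjusted p = 0.00549), 0.80 in TNPR and 0.71 in TNBU. Only the PRTN call held whichever library was left out. The BUTN call was lost without TN replicate 1 (0.53, adjusted p = 0.0586) and without BUTN replicate 1 (0.51, adjusted p = 0.0508), and the TNPR and TNBU values dropped below 1.5-fold without replicate 1 of their own group (0.58 and 0.45). Against Ctrl it rose in PRTN (0.67) and was not called in BUTN (0.39), TNPR (0.57) or TNBU (0.49). The TNPR value passed the threshold without Ctrl replicate 2 (0.61) or TNPR replicate 2 (0.74), and the TNBU value without TNBU replicate 2 (0.72).

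HDAC9, the class IIa member at chr7:18086949-19002416 on the plus strand, was the only one of the 7 with a higher level in TN than in Ctrl. Ctrl libraries had 28.9 and 31.3 CPM and TN libraries 43.97 and 41.6 CPM, a log2 difference of 0.51 (SE 0.08, 95% confidence interval 0.33 to 0.68, adjusted p = 0.00412 by limma-voom). That is 1.42-fold, under the 1.5-fold threshold, so HDAC9 was not called. Over the alternative analyses listed below, this difference ran from 0.449 to 0.565, and its adjusted p was not under 0.05 in each of them. Levels lay between Ctrl and TN in PRTN (34.6 and 34.4 CPM) and BUTN (37.6 and 37.3 CPM). They overlapped Ctrl in TNPR (30.5 and 30.03 CPM) and TNBU (36.1 and 31.0 CPM). On the TMM scale, all 8 SCFA libraries were below both TN libraries. The differences from TN were -0.31 in PRTN (adjusted p = 0.00436), -0.19 in BUTN (0.053), -0.50 in TNPR (0.000143) and -0.36 in TNBU (0.00193), none of them past 1.5-fold. Their size depended on the processing. Over the same alternatives they ran from -0.376 to -0.155 in PRTN and from -0.253 to -0.0373 in BUTN. In TNPR they ran from -0.570 to -0.326 and in TNBU from -0.501 to -0.160. For TNPR and TNBU, the SCFA and the longer time after TNF-α cannot be told apart. Against Ctrl, TNPR differed by 0.01 (95% confidence interval -0.17 to 0.19) and BUTN by 0.32 (0.14 to 0.49).

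**Figure D1:**
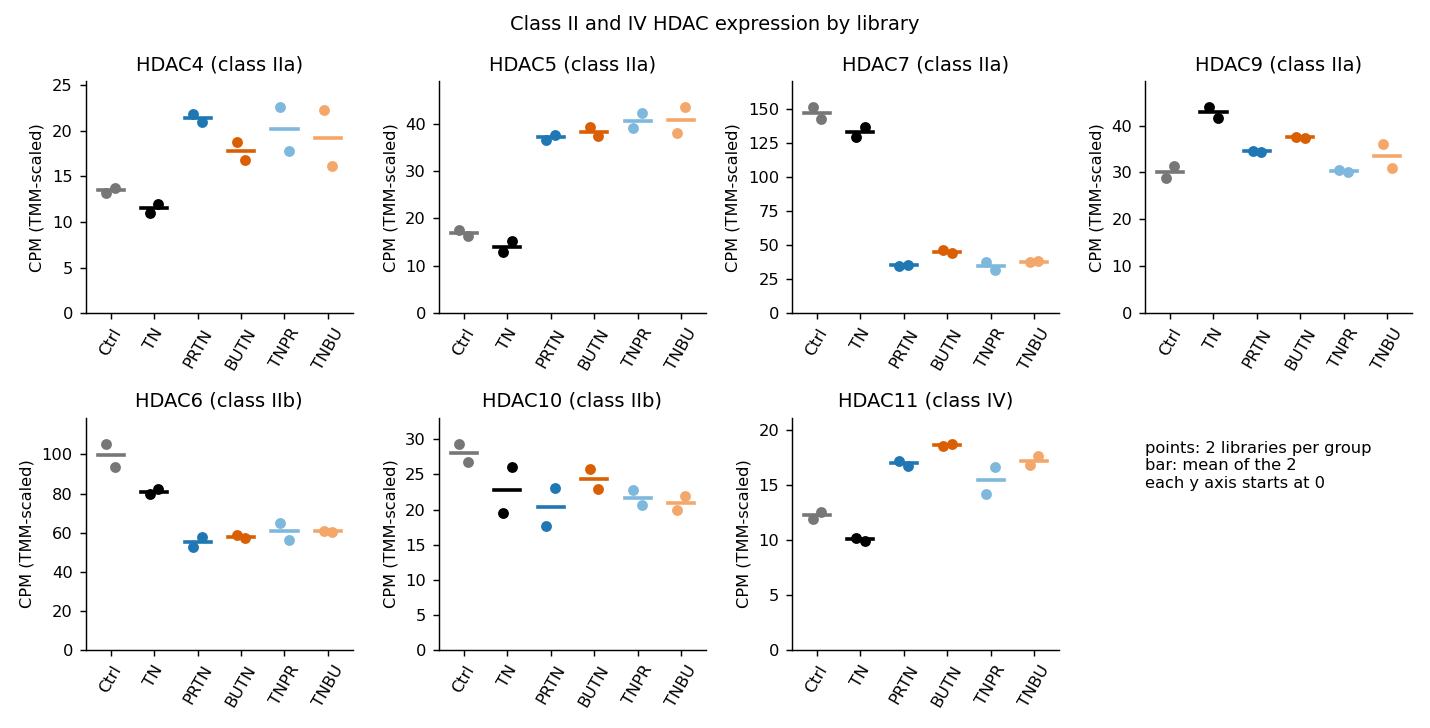
TMM-scaled CPM of each of the 7 HDACs (vertical axis from 0) in the 6 groups, with 1 point per library (2 per group) and a bar at their mean. HDAC7 drops from between 130 and 152 CPM in Ctrl and TN to between 31.6 and 46.4 CPM in the SCFA groups, HDAC5, HDAC4 and HDAC11 are higher in the SCFA groups, and HDAC9 is highest in TN.

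HDAC6, the cytoplasmic tubulin deacetylase of class IIb, lies at chrX:48801377-48824982 on the plus strand. Its levels were 106 and 93.5 CPM in Ctrl, 79.6 and 82.3 CPM in TN, 52.8 and 57.9 CPM in PRTN, and 58.7 and 57.2 CPM in BUTN. TNPR libraries had 64.9 and 56.4 CPM and TNBU libraries 60.99 and 60.4 CPM. The order Ctrl, TN, SCFA groups held without overlap between libraries. HDAC6 fell against Ctrl in each SCFA group, by 0.85 in PRTN (SE 0.08, adjusted p = 2e-06), 0.78 in BUTN, 0.71 in TNPR and 0.71 in TNBU, yet it was called in none of them against TN by limma-voom. Its differences from TN were -0.55, -0.48, -0.42 and -0.41 in PRTN, BUTN, TNPR and TNBU, each with an adjusted p under 0.05 and each under 1.5-fold. The PRTN value passed the threshold without TN replicate 1 (-0.60) and without PRTN replicate 2 (-0.61). TN differed from Ctrl by -0.30 (95% confidence interval -0.47 to -0.12, adjusted p = 0.0682).

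HDAC10, the class IIb polyamine deacetylase, lies at chr22:50245183-50251405 on the minus strand and was called in no comparison. Ctrl had 29.4 and 26.7 CPM, TN 19.5 and 26.01 CPM, PRTN 17.7 and 23.1 CPM, BUTN 25.8 and 22.9 CPM, TNPR 22.8 and 20.6 CPM, and TNBU 19.98 and 21.9 CPM. Each SCFA group overlapped TN, where the replicates themselves were far apart. The differences from TN were -0.16 in PRTN (95% confidence interval -0.48 to 0.16), 0.10 in BUTN (-0.21 to 0.42), -0.06 in TNPR (-0.37 to 0.26) and -0.11 in TNBU (-0.43 to 0.22), and all 4 changed sign when a single library was left out. Against Ctrl, PRTN differed by -0.47 (adjusted p = 0.0127), under 1.5-fold, and by -0.66 without PRTN replicate 2, which passed the threshold. HDAC10 shares exons on the same strand with MAPK12, and its counts were non-whole in 12 of 12 libraries, while the sum of HDAC10 and MAPK12 was whole (within 0.011) in 12 of 12. Reads were therefore split between these genes by RSEM, and the HDAC10 values are uncertain to that extent. MAPK12 fell by 0.63 in PRTN, 0.66 in TNPR and 0.63 in TNBU against TN, and its BUTN value was -0.43.

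HDAC11, the only class IV member, lies at chr3:13479724-13506424 on the plus strand and had the lowest single count. Ctrl had 11.9 and 12.6 CPM and TN had 10.2 and 9.94 CPM. SCFA libraries had 17.1 and 16.8 CPM in PRTN, 18.6 and 18.8 CPM in BUTN, 14.2 and 16.7 CPM in TNPR, and 16.8 and 17.6 CPM in TNBU, all above the libraries without an SCFA. Against TN it rose by 0.75 in PRTN (SE 0.10, adjusted p = 3.24e-05), 0.89 in BUTN, 0.60 in TNPR and 0.77 in TNBU. The TNPR call lay just past the threshold at 1.52-fold and was lost without TN replicate 2 (0.56), BUTN replicate 1 (0.58), TNPR replicate 2 (0.49) or TNBU replicate 1 (0.55). Against Ctrl, HDAC11 rose in BUTN (0.61), a call lost without Ctrl replicate 1 (0.57), TN replicate 1 (0.58) or BUTN replicate 1 (0.58), with values of 0.47 in PRTN, 0.32 in TNPR and 0.49 in TNBU that were not called.

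**Figure D2:**
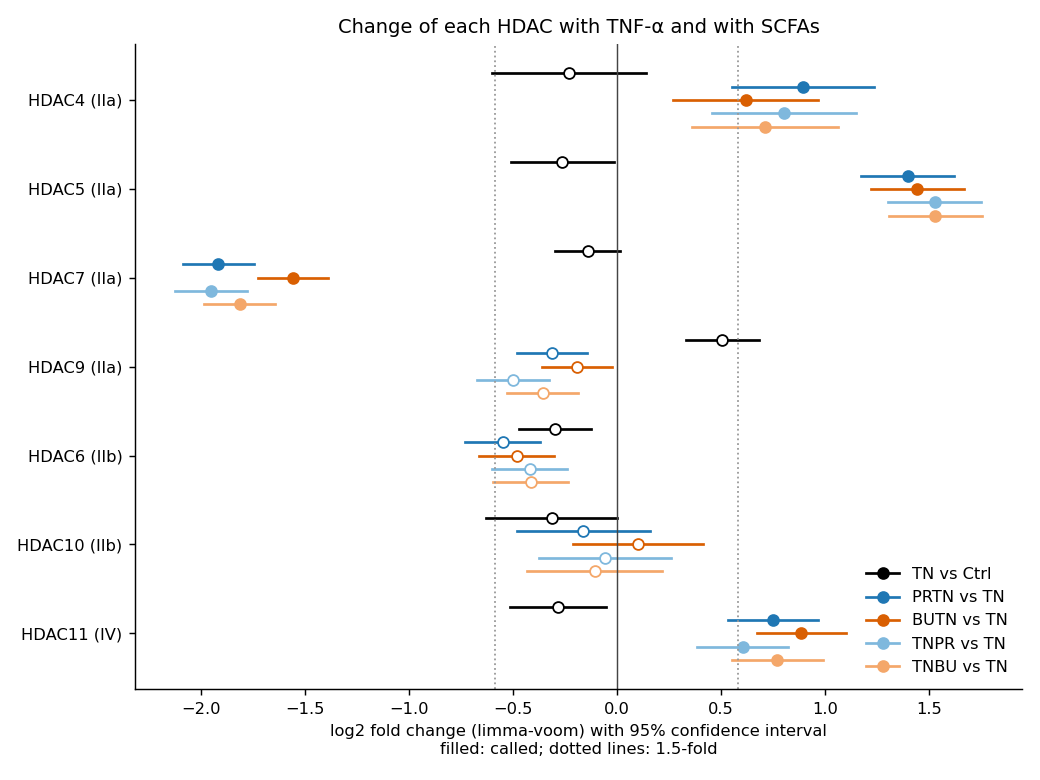
Log2 fold change (horizontal axis) of each HDAC from limma-voom in TN against Ctrl and in the 4 SCFA groups against TN, with lines for the 95% confidence interval and filled points for calls. HDAC5 (1.40 to 1.53) and HDAC7 (-1.95 to -1.56) lie at opposite ends, and 4 of 7 members are filled in every SCFA group and 0 of 7 in TN against Ctrl.

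Across the members, TNF-α alone gave 0 of 7 calls against Ctrl by limma-voom, where 1.30% of all tested genes were called. At an unadjusted p under 0.05 there were 4 of 7, beside 4140 of all 24342 genes, and edgeR and DESeq2 each called 0. The levels of Ctrl and TN did not overlap in any of the 7, which was also true of 46.8% of all tested genes. With propionate before TNF-α, 3 of 7 members were called up and 1 down against TN, beside 23.9% and 16.7% of all tested genes. The same 3 up (HDAC4, HDAC5, HDAC11) and 1 down (HDAC7) were found in BUTN (23.1% and 14.8% of all genes), TNPR (24.9% and 16.9%) and TNBU (25.0% and 16.5%). All 4 comparisons share the TN libraries, so they are not independent. Over all tested genes, 18.4% were called up and 11.9% down in all 4 groups. Members called in either direction were thus 4 of 7 in each group, where 40.6% (PRTN), 37.9% (BUTN), 41.8% (TNPR) and 41.6% (TNBU) of all genes were called, and the median log2 difference of the 7 was -0.16 (PRTN), 0.10 (BUTN), -0.06 (TNPR) and -0.11 (TNBU), beside 0.09, 0.08, 0.12 and 0.09 over all genes. Libraries did not overlap TN in 6 of 7 members in each SCFA group, HDAC10 being the exception, which was also true of 78.2% (PRTN), 77.4% (BUTN), 76.6% (TNPR) and 75.7% (TNBU) of all tested genes.

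Against Ctrl, members called up and down were 2 and 2 in PRTN (22.6% and 16.9% of all genes, 39.4% in either direction) and 2 and 2 in BUTN (22.0% and 14.9%, 36.9% in either direction). They were 1 and 2 in TNPR (23.6% and 16.8%, 40.4% in either direction) and 1 and 2 in TNBU (23.6% and 16.5%, 40.0% in either direction). HDAC5 up with HDAC7 and HDAC6 down was common to the 4 groups. HDAC4 was added in PRTN and HDAC11 in BUTN.

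The effects of the SCFAs and of their timing were compared next, at doses that were not matched (15 mM against 3 mM), so that compound and dose cannot be told apart. Between PRTN and BUTN, 0 of 7 members were called by limma-voom (0.168% of all genes), with 1 of 7 at an unadjusted p under 0.05 (3418 of all 24342 genes, a like share) and 0 by edgeR and by DESeq2. That 1 was HDAC7, lower in PRTN than in BUTN by 0.36 on the log2 scale in non-overlapping libraries, with a 95% confidence interval of -0.54 to -0.18 and an adjusted p of 0.0758. HDAC4 was 0.28 higher in PRTN (-0.03 to 0.58), and HDAC5 differed by -0.05 (-0.23 to 0.14). Between TNPR and TNBU, 0 of 7 were called (0.00822% of all genes), with 0 at an unadjusted p under 0.05 (2096 of all 24342 genes) and 0 by edgeR and DESeq2. The HDAC7 difference there was -0.14 (-0.32 to 0.05) and that of HDAC11 was -0.17 (-0.36 to 0.03).

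Giving the SCFA after rather than before TNF-α called 0 of 7 members for propionate (0.160% of all genes) and 0 of 7 for butyrate (0.267%) by limma-voom, edgeR and DESeq2. At an unadjusted p under 0.05 there was 1 member of 7 for each, beside 2729 (propionate) and 3515 (butyrate) of all 24342 genes, so 1 member is near the background. For propionate this was HDAC9, at -0.19 in TNPR against PRTN (95% confidence interval -0.36 to -0.02, adjusted p = 0.4). For butyrate it was HDAC7, at -0.26 in TNBU against BUTN (-0.44 to -0.08, adjusted p = 0.191), with non-overlapping libraries. The timing effect did not differ detectably between the SCFAs for any of the 7 by limma-voom (0 called, 0 at an unadjusted p under 0.05, 0 by edgeR and DESeq2, beside 0.0% of all genes called and 935 of 24342 at an unadjusted p under 0.05). The intervals of that difference reached from -0.62 (HDAC4) to 0.76 (HDAC10), so differences of that size in single members were within the error. Groups given an SCFA before and after TNF-α also differ in the time from TNF-α to harvest, which cannot be told apart from the order of treatment.

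Levels of the HDACs were compared with each other only per length, as CPM per kb of the MANE Select transcript in GENCODE v44. In Ctrl the order was HDAC7 (34.9 CPM per kb, SD 1.55), HDAC6 (24.2, SD 2.07), HDAC10 (10.9, SD 0.739), HDAC11 (4.35), HDAC5 (3.17), HDAC9 (3.05) and HDAC4 (1.59), where HDAC5 and HDAC9 did not differ beyond their spread. TN kept HDAC7 (31.7), HDAC6 (19.6) and HDAC10 (8.86) on top, with HDAC9 (4.33) now above HDAC11 (3.57). In the SCFA groups HDAC6 was first at 13.4 to 14.7 CPM per kb, and HDAC7 (8.40), HDAC10 (7.94) and HDAC5 (6.97) followed within a narrow range in PRTN, the first pair and the second pair each overlapping between libraries. HDAC7 made up 42.5% (SD 0.257) of the summed level of the 7 in Ctrl and 43.96% (SD 0.525) in TN. With an SCFA its share was 17.2% (PRTN), 19.95% (BUTN), 16.4% (TNPR) and 17.6% (TNBU). HDAC5 made up 3.67% of the sum in TN, and its share was 14.3% (PRTN) and 13.3% (BUTN) with an SCFA first. With the length of all exons joined, the HDAC5 share was 6.01% in TN, 21.1% in PRTN and 19.7% in BUTN, and the HDAC7 share 43.8% in TN and 15.4% in PRTN.

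The summed level of the 7 per length was 82.2 CPM per kb (SD 4.13) in Ctrl, 72.1 (SD 3.67) in TN, 48.8 (SD 2.37) in PRTN, 54.03 (SD 1.78) in BUTN, 49.9 (SD 2.52) in TNPR and 51.3 (SD 0.628) in TNBU. No SCFA library overlapped a library without an SCFA. The ratio of HDAC7 to HDAC5, a pair picked after their values were seen, was 10.97 and 11.1 with Ctrl, 12.8 and 11.3 with TN, and 0.946 to 1.498 over the 8 SCFA libraries. Lengths of all exons joined gave other ratios (6.71 in Ctrl and 0.732 in PRTN, as means) and put HDAC5 first in each SCFA group, so the order among HDAC5, HDAC6, HDAC7 and HDAC10 there depends on the length used, whereas HDAC7 was first in Ctrl and TN with both.

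**Figure D3:**
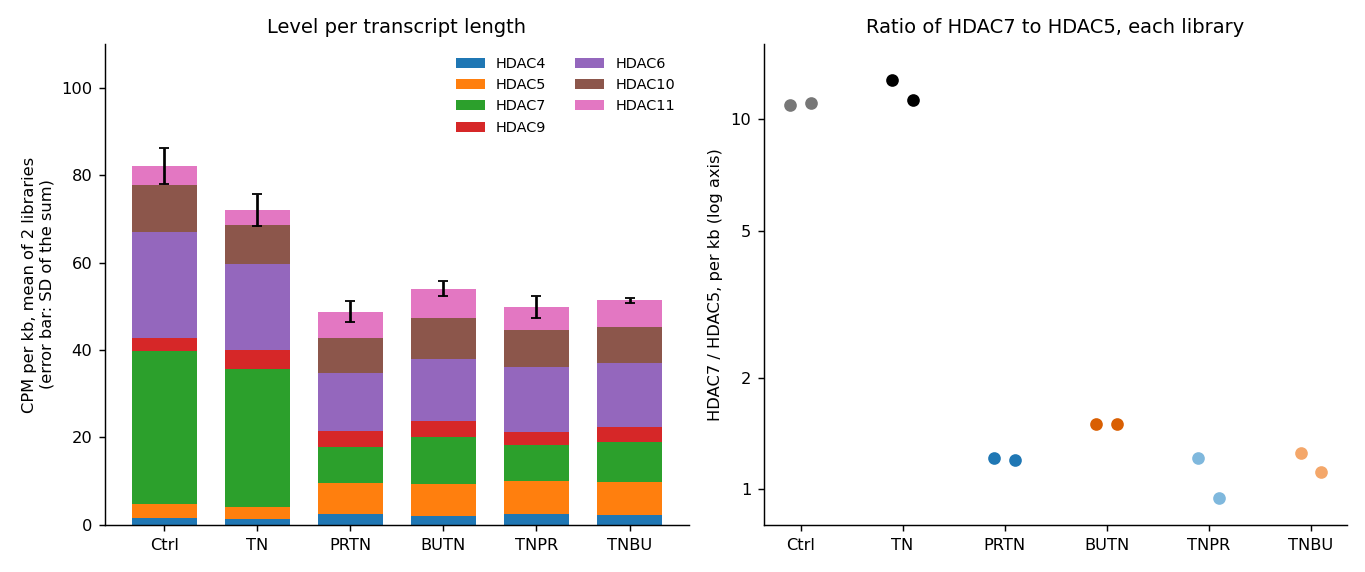
Left, CPM per kb of MANE Select transcript for the 7 HDACs stacked by group (mean of 2 libraries, error bar the SD of the sum), falling from 72.1 in TN to between 48.8 and 54.03 in the SCFA groups. Right, the ratio of HDAC7 to HDAC5 per kb in each library on a log axis, near 11 or 12 in Ctrl and TN and between 0.946 and 1.498 with SCFAs.

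The class I enzymes were read beside the members. Of these 4, 1 was called up and 0 down in all 4 SCFA groups against TN, beside 18.4% and 11.9% of all tested genes. HDAC3, the catalytic partner through which class IIa members repress, had 75.1 and 76.5 CPM in TN, 147 and 151 CPM in PRTN, and 124 and 131 CPM in BUTN, and rose against TN by 0.75 (BUTN) to 1.09 (TNPR) on the log2 scale, with adjusted p from 1.1e-08 to 3.7e-07 by limma-voom. HDAC1 differed from TN by 0.46 to 0.57 and HDAC2 by -0.42 to -0.32, all under 1.5-fold, and HDAC8 by -0.02 to 0.06. The summed level of class I per MANE length was 235 CPM per kb (SD 0.528) in TN and 331 (PRTN, SD 3.70), 318 (BUTN), 325 (TNPR) and 311 (TNBU) with SCFAs. As a description, the 7 class II and IV members summed to less, and class I to more, in every SCFA library than in any library without an SCFA. Neither sum describes each member. HDAC7 went from 31.7 CPM per kb in TN to 8.40 in PRTN and HDAC6 from 19.6 to 13.4, while HDAC4, HDAC5 and HDAC11 rose. In class I, HDAC1 and HDAC3 were higher and HDAC2 was lower.

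Genes that act with class IIa enzymes were then read from lists, all against TN, beside the 18.4% of all tested genes called up and 11.9% called down in all 4 SCFA groups. Of 4 MEF2 factors, 2 rose in all 4 groups. MEF2D had 44.9 and 45.6 CPM in TN and 97.4 and 97.0 CPM in PRTN, and rose by 0.99 to 1.14. MEF2C rose by 2.14 to 2.43 from 1.12 and 0.985 CPM in TN to 5.62 and 5.66 CPM in PRTN. MEF2A fell in TNPR (0.59 on the log2 scale) and was -0.46, -0.40 and -0.54 in PRTN, BUTN and TNBU, and MEF2B was not called. Of 9 genes listed as MEF2 targets, 6 rose and 0 fell in all 4 groups, led by MMP10, a matrix metalloproteinase (2.20 to 2.72), the nuclear receptors NR4A2 (2.14 to 2.72) and NR4A3 (1.69 to 2.12) and the calcineurin regulator RCAN1 (1.00 to 1.18). NR4A3 alone of the 9 was also called up in TN against Ctrl (1.18). Many of these genes respond to other factors too, and MMP10, NR4A2 and NR4A3 were each under 2 CPM in TN.

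Among 17 genes listed as kinases tied to class IIa enzymes, directly or upstream, 5 rose and 1 fell in all 4 groups. PRKD2, a protein kinase D, rose by 1.11 to 1.38 from 22.2 and 20.7 CPM in TN. CAMK1D rose by 2.36 to 2.72 from 0.186 and 0.359 CPM, and CAMK2B, at or under 3 counts in each Ctrl and TN library, had 1.13 to 2.20 CPM in the SCFA libraries. SIK1, a salt-inducible kinase, fell by 1.45 to 2.27 on the log2 scale from 17.5 and 21.7 CPM. Of 7 listed 14-3-3 genes, SFN rose (1.40 to 1.61) and YWHAH fell (by 0.59 to 0.67), and of 7 phosphatase subunits PPP2R1A fell (by 0.63 to 0.72). In the HDAC3-NCoR/SMRT complex, 1 of 5 genes, GPS2, rose in all 4 groups (0.67 to 0.85).

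The partners of the other classes were mixed. Of 15 genes listed as HDAC6 substrates and partners, 4 rose and 3 fell in all 4 SCFA groups. SIRT2, the other main tubulin deacetylase, rose by 1.34 to 1.78 from 14.7 and 15.3 CPM in TN, and TPPP, a tubulin-binding protein, by 3.53 to 3.65 from 0.80 and 1.05 CPM. TUBA1B, an α-tubulin, fell by 1.07 to 1.29 on the log2 scale, and SQSTM1, an autophagy receptor, fell by 0.75 to 1.46. Of 13 genes of polyamine metabolism, 3 rose and 2 fell in all 4 groups (23.1% and 15.4%), near the shares over all tested genes. ODC1, which makes putrescine, rose by 0.64 to 0.78, OAZ2, an antizyme that restrains it, by 0.97 to 1.10, and AZIN2, an antizyme inhibitor, by 1.24 to 1.37, while AGMAT fell by 1.92 to 2.17. Of the 2 HDAC11 substrates listed, SHMT2 differed from TN by -0.28 to -0.04 and was not called, and AKAP12 rose in TN against Ctrl (0.67) and fell against TN in PRTN (0.62), TNPR (0.82) and TNBU (0.62), with -0.41 in BUTN.

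**Figure D4:**
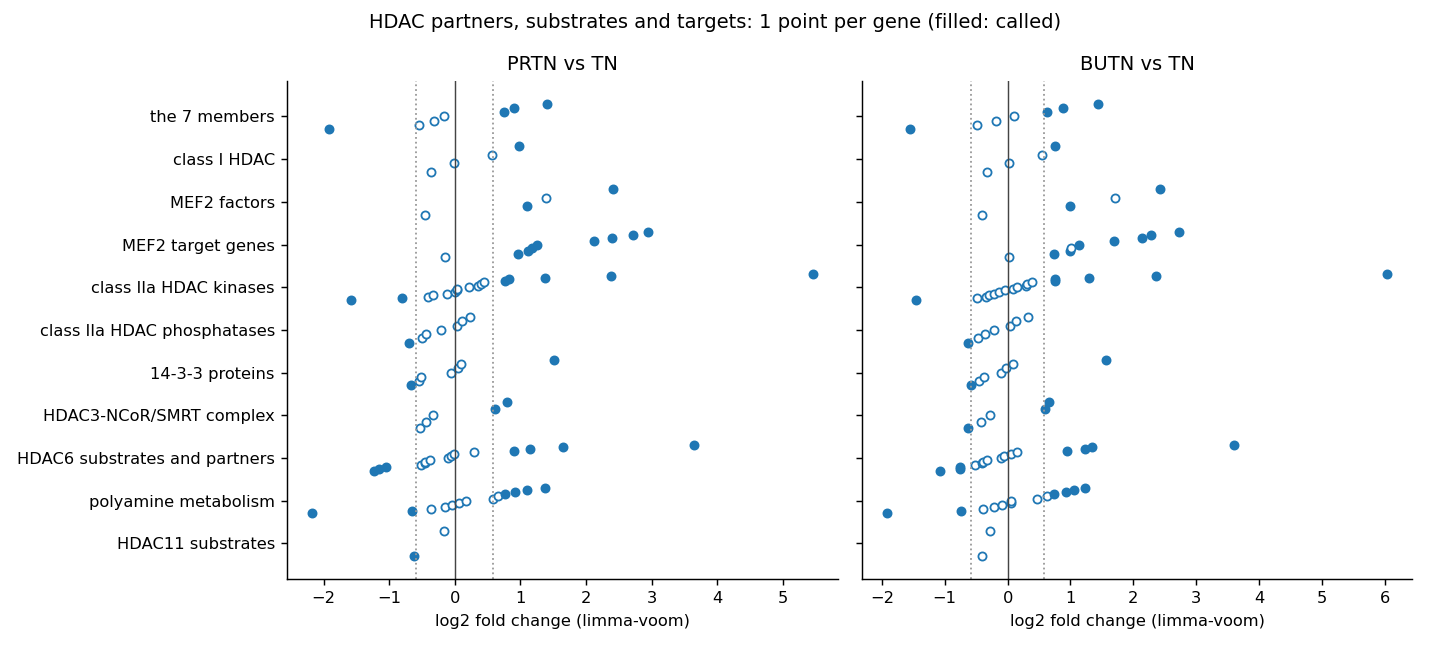
Log2 fold change from limma-voom (horizontal axis) of the 7 HDACs and of each gene in 10 lists of related genes, in PRTN against TN (left) and BUTN against TN (right), with 1 point per gene, filled where called and dotted lines at 1.5-fold. Most MEF2 target genes lie to the right of the dotted line, with 8 of 9 called up in PRTN and 7 of 9 in BUTN. Of all tested genes, 23.9% (PRTN) and 23.1% (BUTN) were called up. The HDAC6 and polyamine lists spread to both sides.

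The genes most like each member were found over the 12 libraries by Pearson's r of log2 CPM among 10194 genes with a mean of at least 10 CPM. These libraries form sets with and without an SCFA, and r largely reads that split, so the values are a description. HDAC7 was closest to FADS2 (r = 0.999) and HDAC5 to CAPN5 (r = 0.997), and 2022 and 1237 genes had an r of at least 0.95 with them. HDAC11 was closest to BMP4 (0.982, 71 genes), HDAC6 to ARHGEF17 (0.983, 212 genes) and HDAC4 to ATG2B (0.980, 26 genes). The patterns of the other two members were shared by few genes. HDAC9, highest in TN, was closest to MAML2 (0.974), with 7 genes at 0.95 or more. HDAC10 was closest to VPS9D1 (0.963), the 1 gene at that level, followed by ZNF580 (0.905) and TEAD3 (0.864).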

How the data were processed

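Per the study's methods, the authors aligned reads of stranded mRNA libraries to GRCh38 with STAR and counted them per gene with RSEM on GENCODE v26. The submitters' processing notes name FastQC 0.11.5, STAR 2.6.1a and RSEM (its version and its strand setting are not given in the sources used here). The deposited values are expected counts, that is estimates per gene without scaling or a filter, and 19.3% were not whole numbers. Replicates were not pooled.

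Expected counts were analysed without rounding with limma 3.58.1 (voom), edgeR 4.0.16 (TMM factors) and R 4.3.3. The filter on low counts took the geometric mean of the count plus 1 over the 12 libraries, subtracted 1 and asked for at least 1. A mean for each of the 6 groups was fitted over all 12 libraries (prior degrees of freedom 6.12), and p-values were adjusted by Benjamini-Hochberg over the 24342 kept genes. As in the study, a call needed a change of more than 1.5-fold with an adjusted p below 0.05. Confidence intervals are at 95% and not adjusted for multiple testing. The scripts were tested on simulated data. Depth was 27269986 to 33851130 counts per library, and 3 counts correspond to 0.0867 to 0.112 CPM. Intervals and floors cover these libraries only.

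Alternatives were edgeR's quasi-likelihood test, DESeq2 1.42.0, other scalings and filters, other fold thresholds, sample weights, fits of only the groups compared, a replicate block and leaving out each library. Same-numbered libraries did not deviate together: the correlation of their deviations from the group means was -0.035 to 0.066 over 15 pairs of groups, over 0.1 in 0, so they were not treated as paired. All 7 members are named in the text, with the class I enzymes, the MEF2 factors, check genes, up to 4 genes per list called in 1 direction in all 4 SCFA groups plus up to 2 in the other direction, and up to 3 genes most like a member, of which 1 gene is not reported here. The members and lists were chosen with earlier results of these data known. Promoter windows came from RefSeq tables and gene positions from GENCODE v44, where the identifiers of all 7 members matched.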

Additional observations from a re-analysis of the deposited data

How the results depend on the processing

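Over 98 member results and 2352 alternatives, 2292 kept their side of the thresholds, 30 lost a call, 30 gained one and 0 reversed a called direction. The 2292 include 41 values, not called, that changed sign, from 19 results of at most 0.187 on the log2 scale. The number of members called depended mainly on the fold threshold. Without one, the count went from 0 to 1 in TN against Ctrl and from 3 to 6 in TNPR and in TNBU against Ctrl. It also went from 4 to 6 in PRTN, TNPR and TNBU against TN, from 4 to 5 in BUTN against TN, and from 4 to 6 in PRTN and BUTN against Ctrl. At a fold change over 2, it went from 4 to 2 (HDAC5 and HDAC7) in each SCFA group against TN and in PRTN and BUTN against Ctrl. Leaving out a library moved no count of members by over 1.5 times. With the replicate block, counts were 0 in TN against Ctrl and 4 in each SCFA group against TN, as without it. The numbering paired no libraries, and the block left 3 in TNPR and TNBU against Ctrl. edgeR and DESeq2 each gave 4 in TNPR against Ctrl. Scaling by library size alone moved the median of all genes by 0.156 (PRTN), 0.153 (BUTN), 0.173 (TNPR) and 0.196 (TNBU) against TN, and ended the HDAC6 call in TNBU against Ctrl (-0.57). It also added calls against Ctrl for HDAC4 in TNPR (0.69) and TNBU (0.63) and for HDAC11 in TNBU (0.63), so that 4 members were called in each of these groups. Over all genes, calls in TN against Ctrl were 186 up and 130 down, and 79 and 12 when only these groups were fitted, where fewer libraries estimate the spread. Library size alone turned this balance to 144 up and 181 down, and moved the calls against TN from 5620 up and 3613 down to 6579 and 2656 in BUTN, from 6067 and 4117 to 7232 and 3132 in TNPR, and from 6094 and 4027 to 7329 and 2849 in TNBU. With Ctrl replicate 1 left out, calls in TN against Ctrl were 118 up and 57 down. HDAC11, at 274 to 649 counts, and HDAC4 had the calls nearest to the threshold.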

Other observations

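Of 11 genes listed as lying near or antisense to a member, 9 were tested, and 3 rose against TN in all 4 SCFA groups with 0 falling in all 4 by limma-voom, beside 18.4% and 11.9% of all tested genes. FBLN2, an extracellular matrix gene, rose by 2.10 to 2.31 on the log2 scale, from 18.8 and 23.6 CPM in TN to 102 and 106 CPM in PRTN. VDR, the vitamin D receptor, rose by 1.60 to 2.01, and TUBGCP6, a γ-tubulin complex subunit, by 0.64 to 1.06.

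Epithelial and tubular markers did not move in 1 direction in the SCFA groups. Of 6 epithelial markers, 3 rose and 1 fell against TN in all 4 groups, beside 18.4% and 11.9% of all tested genes. KRT19 rose by 4.18 to 4.71 from 4.47 and 4.59 CPM in TN, and CDH1, the epithelial cadherin, had 0.0745 and 0.144 CPM in TN and 8.37 to 14.4 CPM in the SCFA libraries. EPCAM fell by 1.37 to 1.91 on the log2 scale. Of 10 proximal tubule markers, 5 rose and 2 fell in all 4 groups. ANPEP, LRP2 and PAX2 rose by means of 6.42, 5.14 and 2.53 on the log2 scale, ANPEP and LRP2 from levels at or near 0. The water channel AQP1 rose by 3.79 to 5.02, while the transcription factor PAX8 fell by 1.35 to 1.62 and GGT1 fell by 1.42 to 1.60.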
